A study of Mus musculus with 8 samples.

Results

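The fibrillar collagens and the fibroblast matrix were followed here through 10 genes: Col1a1, Col1a2, Col3a1, Col5a1, Col5a2, Col6a1, Col6a2, Fn1, Dcn and Postn. Their probes were taken by gene symbol from the annotation of the array. All 10 genes had a probe, with 22 probes in all among the 20355 of the array, and all 10 were among the 14015 features tested. None of them reached the test's threshold between the lines, in either condition or as a change between conditions, and neither did any of the 14015 features, so this null is not particular to the matrix genes.

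Fibrillar collagens are secreted as procollagen chains that fold into a triple helix, are trimmed outside the cell and assemble into fibrils. Type I is made of Col1a1 and Col1a2 chains, type III of Col3a1 alone, and type V, with Col5a1 and Col5a2, starts fibrils and limits their width. Type VI forms beaded filaments beside them, fibronectin (Fn1) binds integrins and guides fibril assembly, and decorin (Dcn) and periostin (Postn) bind to the fibrils. Embryonic fibroblasts, the usual feeder layer for mouse embryonic stem cells, make this matrix in quantity, while undifferentiated stem cells are known for a matrix of laminin and type IV collagen.

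The study compared HM-1 and R1, a pair of established mouse embryonic stem cell lines. HM-1 lacks functional Hprt, and R1 is widely used for gene targeting. RNA of both lines shared each of 8 arrays with 2 colours: 4 arrays held untreated cells and 4 held cells of both lines given nocodazole, which takes microtubules apart and arrests cells in mitosis. The labels put HM-1 in Cy3 on 3 arrays, untreated replicates 3 and 4 and nocodazole replicate 4, and in Cy5 on the other 5. Each group is 1 line against 1 line. The labels give neither the dose and time of the drug nor whether replicates were separate cultures, so p-values measure the spread between arrays, which may be technical. They also do not say whether feeder cells were grown with either line, and their protocols speak of organs and of a reference pooled from control animals, which the channel labels (1 line in each) do not name. The series text speaks of dye swaps on 50% of arrays, which 3 of 8 is not. RNA was bulk, so fewer fibroblasts in a culture and less matrix RNA per cell cannot be told apart.

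All values are log2 ratios between the lines with the sign of the deposited table, each array centred on its median. A ratio carries no level, so it was not possible to see how strongly a gene was expressed or whether stem cell markers were present. The sources do not settle which line a positive sign favours, so neither line is called higher. Pairs of arrays with one dye label had r between 0.016 and 0.23 over features and pairs with opposite labels r between -0.18 and 0.0057. A code in the table for a ratio of 100000 is positive on the 5 Cy5 arrays and negative on the 3 Cy3 arrays. The sign was not settled from these values together. The medians over the 10 genes, their ratios over both conditions and counts or medians of the other lists are therefore also given with the 3 arrays of HM-1 in Cy3 turned in sign. The same holds for the ratios over both conditions of the named genes of those lists. The cell type marker sets are given under the deposited signs alone. Arrays held between 17928 and 19445 values, and the number of arrays limits the precision.

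Proximal promoter stretches are shown for Col1a2, whose probes moved together, and Col6a2, which had the smallest p among the genes untreated and over both conditions. The stretches are the 250 bases before a start site, from RefSeq on GRCm38.p6, whose promoter table matched 6 of the 10 genes. Capitals mark the CCAAT box, the GC box GGGCGG and the TATA box TATAAA, searched on both strands, so that GGGCGG on the other strand reads as CCGCCC, and overlapping matches were counted. Col1a2 lies at chr6:4505368-4505617 on the plus strand, and the further downstream of the 2 stretches listed for Col6a2 at chr10:76623405-76623654 on the minus strand.
Col1a2: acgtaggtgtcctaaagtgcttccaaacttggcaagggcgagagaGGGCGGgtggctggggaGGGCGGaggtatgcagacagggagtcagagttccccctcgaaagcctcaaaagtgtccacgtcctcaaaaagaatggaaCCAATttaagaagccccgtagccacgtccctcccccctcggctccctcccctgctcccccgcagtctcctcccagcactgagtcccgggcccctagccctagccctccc
Col6a2: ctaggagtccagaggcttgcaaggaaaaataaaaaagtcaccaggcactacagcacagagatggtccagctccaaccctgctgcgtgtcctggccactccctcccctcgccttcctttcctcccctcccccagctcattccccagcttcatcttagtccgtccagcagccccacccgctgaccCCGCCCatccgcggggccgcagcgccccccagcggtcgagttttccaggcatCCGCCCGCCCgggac
The Col1a2 stretch held 1 CCAAT, 109 bases before the start counted from the first base of the match, and 2 matches of GGGCGG. The Col6a2 stretch held 3 matches of GGGCGG, a pair of them overlapping, and no CCAAT. Over all 32851 promoter windows of this length, 33.8% held CCAAT, 32.7% GGGCGG and 12.4% TATAAA. These matches describe the letters only, and the arrays carry no measurement of binding at them.

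Among the chains of type I and type III collagen, only Col1a2 was measured with precision. Its 4 probes were averaged to 0.079, -0.11, -0.18 and -0.36 on untreated replicates 1 to 4, and to 0.41, -0.21, -0.17 and -0.21 on nocodazole replicates 1 to 4. The gene was thus negative on 6 arrays, near 0 on untreated replicate 1 and clearly positive on nocodazole replicate 1 alone. All 4 probes were positive on that array, at 0.39, 0.65, 0.36 and 0.24, and on 5 arrays (untreated 2, 3 and 4, nocodazole 2 and 3) all 4 were negative. The median over arrays of the standard deviation (SD) between the 4 probes was 0.15. The group means were -0.14 ± 0.18 untreated and -0.047 ± 0.30 with nocodazole (SD, n = 4 each), so both spreads were larger than their means. The fitted ratio was -0.14 untreated (95% interval -0.45 to 0.16, limma adjusted p = 0.93) and -0.13 over both conditions (-0.35 to 0.099, adjusted p = 0.90). Without nocodazole replicate 1 the ratio over both conditions was -0.18 (limma adjusted p = 0.69). With the Cy3 arrays turned it was 0.12.

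Col1a1, the partner chain of Col1a2, had 2 probes with many gaps. The first had a value on 6 arrays, between -3.37 and 2.75, and the second on 3 nocodazole arrays, between -2.25 and 2.57. The gene mean was -0.88, 2.75 and -2.81 untreated (replicates 1, 3 and 4), and -1.25, 0.42, -2.81 and 1.28 on nocodazole replicates 1 to 4. Positive and negative values of similar size stood within each group. The untreated mean was -0.31 ± 2.82 (SD, n = 3), and nocodazole gave -0.59 ± 1.82 (SD, n = 4). Its SD over all arrays, 2.08, lay at the 98.1 percentile of all features tested. The fitted ratio over both conditions was -0.38 with an interval from -2.27 to 1.52, which leaves both directions possible at several-fold size.

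Col3a1, the single chain of type III collagen, had 1 probe and as wide a spread. It was at -4.61, -0.23, 1.14 and 2.26 on untreated replicates 1 to 4 and at -0.32, -0.35 and 0.70 on nocodazole replicates 1, 2 and 4. The Cy3 arrays were the positive ones in both groups. The fitted difference between the dye labels was -2.89 (SE 1.24, limma adjusted p = 0.55), the largest among the 10 genes. The ratio untreated was -0.36 ± 3.01 (SD, n = 4), and with the Cy3 arrays turned the fitted ratio was -2.06 (adjusted p = 0.40). Without untreated replicate 1 the fitted ratio untreated changed sign to 0.81 (limma adjusted p = 0.67).

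**Figure D1:**
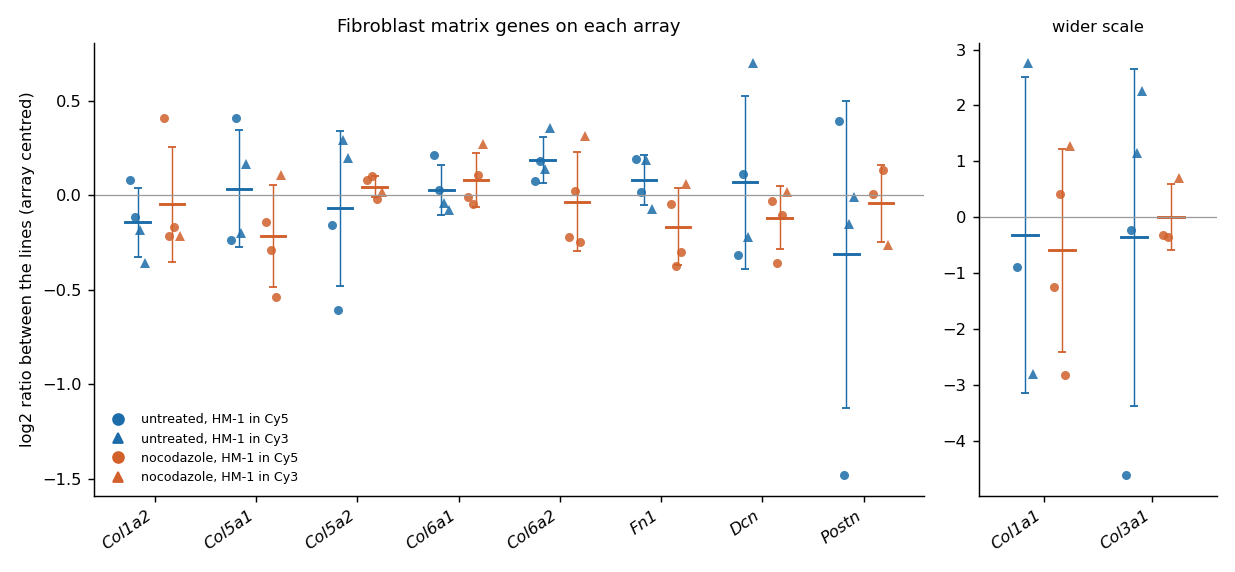
Log2 ratio between the lines (vertical axis) of each gene on each array, with untreated arrays in blue and nocodazole arrays in orange, circles for HM-1 in Cy5 and triangles for HM-1 in Cy3. Horizontal bars are group means and error bars 1 SD; Col1a1 and Col3a1 are on a wider scale, with values from -4.61 to 2.75, while Col6a1 stays between -0.080 and 0.27.

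Type V collagen was near 0 in both chains. Col5a1 had 3 probes with a gene mean of -0.24, 0.41, -0.20 and 0.17 on untreated replicates 1 to 4 and -0.14, -0.29, -0.54 and 0.11 on nocodazole replicates 1 to 4. Untreated values lay on both sides of 0, 3 of the 4 nocodazole values were negative, and the groups overlapped. The probes disagreed on the nocodazole arrays: probe 1 was at -1.11 and -1.74 on replicates 1 and 3, where probe 2 was at 0.63 and -0.066 and probe 3 at 0.051 and 0.19. Probe 3 kept between -0.18 and 0.19 on all arrays. The fitted ratio with nocodazole was -0.18 (interval -0.58 to 0.21, limma adjusted p = 0.999) from the mean of the probes and -0.018 from their median.

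Col5a2 was at -0.16, -0.61, 0.30 and 0.20 on untreated replicates 1 to 4, and at 0.080, 0.10, -0.019 and 0.018 on nocodazole replicates 1 to 4. As a mean of 2 probes its nocodazole values were the tightest of the 10 genes, at 0.046 ± 0.056 (SD, n = 4). The probes were of opposite sign on nocodazole replicates 2 and 3. Probe 1 was at 0.49 and -0.32 there, and probe 2 at -0.29 and 0.28. Taken singly, their nocodazole SDs were 0.34 and 0.23, so the tightness is that of the mean alone. The low value on untreated replicate 2 came from probe 1, at -1.31, against 0.093 for probe 2. With the Cy3 arrays turned the fitted ratio untreated was -0.32 (limma adjusted p = 0.38) and the change between conditions 0.36 (adjusted p = 0.95).

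The type VI chains gave the narrowest intervals. Col6a1, with 1 probe, was at 0.22, 0.027, -0.043 and -0.080 on untreated replicates 1 to 4 and at -0.010, -0.047, 0.11 and 0.27 on nocodazole replicates 1 to 4. Its SD over all arrays, 0.13, lay at the 5.50 percentile of all features. The fitted ratio over both conditions was 0.056, with an interval from -0.12 to 0.23. At this precision Col6a1 showed no ratio between the lines beyond that interval.

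Col6a2 was the gene with the smallest p untreated. Its 2 probes averaged 0.074, 0.18, 0.14 and 0.36 on untreated replicates 1 to 4. By this mean it was the one gene of the 7 with complete values that was positive on all untreated arrays. On untreated replicate 1, probe 1 was at 0.18 and probe 2 at -0.028. Among all features with complete values, 6.7% were positive on all 4 untreated arrays and 7.37% negative, which none of the 7 genes was. With nocodazole the gene was at -0.22, 0.021, -0.25 and 0.32, so the sign was mixed. The probes differed in sign on nocodazole replicate 3, with probe 1 at -0.63 and probe 2 at 0.13. None of the 7 genes was positive on all 4 nocodazole arrays (6.2% of features) or negative on all 4 (4.15%). The group means were 0.19 ± 0.12 and -0.034 ± 0.26 (SD, n = 4 each). The fitted ratio untreated was 0.19 (SE 0.10, interval -0.057 to 0.43, limma adjusted p = 0.83). With the Cy3 arrays turned it was -0.060 untreated and -0.26 with nocodazole (limma adjusted p = 0.89). Its sign untreated thus differed between the readings.

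Fibronectin had the most probes, 5, and was close to 0. The gene mean was 0.19, 0.015, 0.19 and -0.071 on untreated replicates 1 to 4 and -0.045, -0.37, -0.30 and 0.059 on nocodazole replicates 1 to 4. It was positive or near 0 untreated and negative on 3 of the 4 nocodazole arrays, and the groups overlapped. The lower nocodazole values came mainly from probe 5 and, on replicates 2 and 3, in part from probe 1. Probe 5 was at -0.099, -1.31, -1.18 and -0.66 on nocodazole replicates 1 to 4. Probe 1 was at -0.46 and -0.39 on replicates 2 and 3 but 0.48 on replicate 4, with a nocodazole mean of -0.097. Probes 2, 3 and 4 had nocodazole means of 0.087, 0.021 and -0.023. Untreated, probe 5 had values on replicates 2 and 4 alone, at 0.09 and -0.40. The gene mean thus lacks this probe on untreated replicates 1 and 3 and holds it on all nocodazole arrays. The change between conditions was -0.22 from the mean of the probes (interval -0.60 to 0.16, limma adjusted p = 0.997) and -0.087 from their median.

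Decorin, a small proteoglycan that coats collagen fibrils, had 1 probe and was at -0.31, 0.11, -0.22 and 0.70 untreated and at -0.032, -0.36, -0.10 and 0.017 with nocodazole, on replicates 1 to 4. Untreated replicate 4 was the high value, and the other arrays lay on both sides of 0. The fitted ratio over both conditions was 0.0091, with an interval from -0.28 to 0.30. Periostin, a matricellular protein that aids collagen crosslinking, had 1 probe, at 0.39, -1.48, -0.15 and -0.008 on untreated replicates 1 to 4 and at 0.005, 0.13 and -0.27 on nocodazole replicates 1, 3 and 4. The low array, untreated replicate 2, set the untreated mean of -0.31 ± 0.81 (SD, n = 4). Over both conditions Postn was at -0.16 (interval -0.77 to 0.44).

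**Figure D2:**
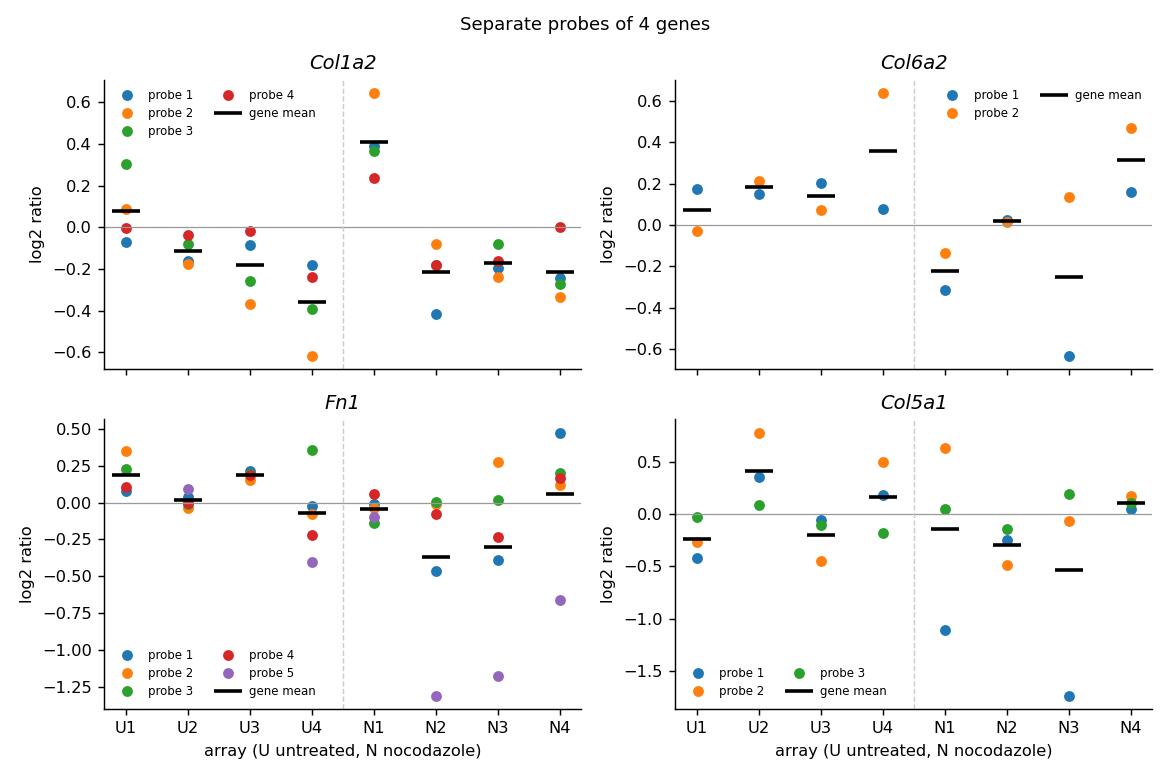
Log2 ratio (vertical axis) of each separate probe of Col1a2, Col6a2, Fn1 and Col5a1 on untreated (U) and nocodazole (N) replicates 1 to 4, with black bars for the gene mean. The 4 probes of Col1a2 are all positive on nocodazole replicate 1, while 1 of the 5 probes of Fn1 lies far below the others with nocodazole, down to -1.31.

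Across the 10 genes the ratios untreated were balanced, with 5 negative and 5 positive fitted values and a median of -0.019, where all features had a median of -0.0005. In limma 0 of 10 passed the adjusted threshold of 0.05, as did 0 of all features (0%), and 0 of 10 had an unadjusted p under 0.05, against 6.33% of all features. With nocodazole 6 were negative and 4 positive, with a median of -0.034 against -0.0045 for all features. Again 0 passed (0% of all features), and 0 had an unadjusted p under 0.05, against 2.91%. Over both conditions the counts were 5 and 5 with a median of -0.010, and 0 passed (0%), with 0 at an unadjusted p under 0.05 against 5.59% (2.43% negative and 3.16% positive). The median size of the ratio without its sign was 0.069 for the 10 genes and 0.12 for all features. For 9 of 10 genes the ratio over both conditions lay within 0.2 of 0, Col1a1 at -0.38 being the other one. With the Cy3 arrays turned, the medians were -0.11 untreated, -0.16 with nocodazole and -0.12 over both conditions, and 0 genes passed. An unadjusted p under 0.05 was then reached by 2 of 10 untreated (10.5% of all features), 1 with nocodazole (5.13%) and 0 over both conditions (10.5%). The turned ratios over both conditions were -0.74 for Col1a1, -1.23 for Col3a1, -0.10 for Col5a1, -0.13 for Col5a2 and -0.16 for Col6a2. For Fn1 the turned ratio was -0.088, for Dcn -0.15, for Postn -0.011 and for Col6a1 -0.0014. Col1a2 at 0.12 was the one positive gene of the 10 in that reading.

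No array compared treated with untreated cells, so what nocodazole did to either line alone is not measured, and the comparison is of the line ratio with and without the drug. For this change 4 genes were negative and 6 positive, with a median of 0.044 against -0.0048 for all features. In limma 0 of 10 passed (0% of all features), and 0 had an unadjusted p under 0.05, against 3.33%. The untreated and nocodazole values overlapped for all 10 genes, and did not overlap for 2.08% of features with complete values. The sign of this median was not stable. It was -0.095 with the Cy3 arrays turned, -0.068 without the dye term, -0.056 without values equal to a ratio of small whole numbers and -0.12 over the 7 genes with complete values. It was also negative without untreated replicate 1 (-0.021) or 2 (-0.0032) and without nocodazole replicate 1 (-0.0016) or 4 (-0.084). The difference between the dye labels was negative for 9 of the 10 genes, with a median of -0.21 against -0.032 for all features, of which 53.4% were negative. None of these dye differences had an unadjusted p under 0.05 (9.16% of all features), and their part in the ratios was not tested beyond the dye term of the fit.

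**Figure D3:**
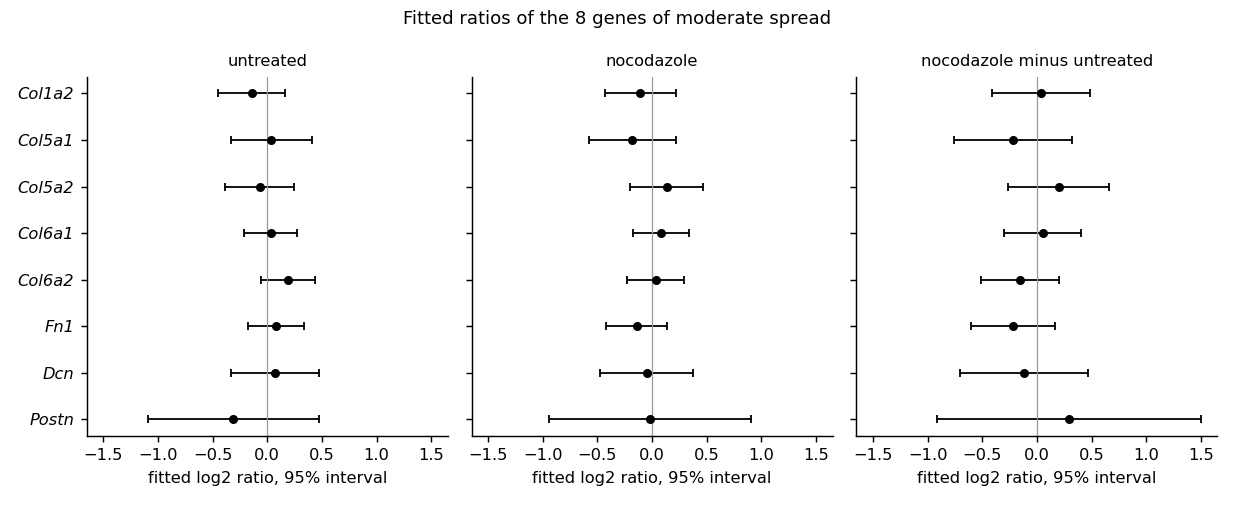
Fitted log2 ratio (points) with its 95% interval (bars) for the 8 genes other than Col1a1 and Col3a1, untreated, with nocodazole and as the change between conditions. Every interval shown includes 0; the narrowest belong to Col6a1 and Col6a2 and the widest to Postn.

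The question behind the choice of these genes was whether fibroblast matrix follows the ratio between the lines. Several of the named genes of other lists were negative on 7 arrays and positive on nocodazole replicate 1. Among features with complete values 2.6% had this pattern under the deposited signs and 0.676% with the Cy3 arrays turned. Of the 7 matrix genes with complete values 0 had it in either reading, which at these shares says nothing particular about them. Col1a2 came nearest, with 6 of the 7 arrays negative and a positive value on nocodazole replicate 1, a criterion met by 7.64% of features. In the turned reading 3.21% of features met it, and among the 7 genes Col5a2 alone did. Of the 4 probes of Col1a2, 1 met the full pattern under the deposited signs. Dab2, an endocytic adaptor of primitive endoderm, showed it with values between -1.21 and -0.92 untreated, between -1.22 and -0.82 for nocodazole replicates 2 to 4, and 1.27 for replicate 1. The ratio of Dab2 over both conditions was -0.80, or 0.28 with the Cy3 arrays turned. The difference in size between Dab2 and Col1a2 was not tested.

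Array by array, the medians of the matrix and endoderm lists can be set side by side. On nocodazole replicate 1, 7 of the 10 were negative, with a median of -0.039, where the 12 tested genes of primitive and parietal endoderm had a median of 0.67. On the other arrays the endoderm medians lay between -0.60 and -0.12, and the matrix medians were 0.015, 0.048 and 0.080 on untreated replicates 2, 3 and 4. Of the 8 arrays, the medians of the matrix genes were therefore of the opposite sign to the endoderm genes on 5, namely untreated 2, 3 and 4 and nocodazole 1 and 4. On those 5 arrays the matrix medians lay between -0.039 and 0.084, so close to 0 that their sign says little. Nocodazole replicates 2 and 3 were the arrays on which the matrix median was lowest, at -0.21 and -0.17. The endoderm list had a median of -0.38 over both conditions, with 9 negative and 3 positive, and 0.0033 with the Cy3 arrays turned, with 6 and 6. In limma 0 of its genes passed and 4 had an unadjusted p under 0.05, all negative (2.43% of all features on that side). In the turned reading 0 did (10.5% of all features). The difference between the lists was not tested.

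**Figure D4:**
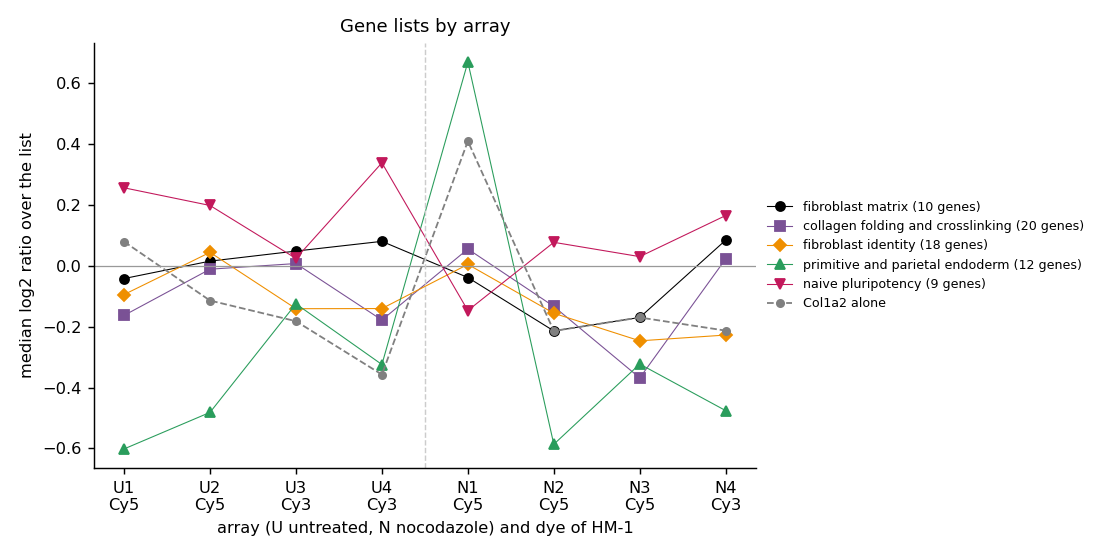
Median log2 ratio over each gene list (vertical axis) on each array, U for untreated and N for nocodazole, with the dye of HM-1 below; thin lines only join points of one list, since replicates have no order. The endoderm median turns from between -0.60 and -0.12 to 0.67 on nocodazole replicate 1 and Col1a2 to 0.41, while the median of the 10 matrix genes stays at -0.039.

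The enzymes and chaperones that fold and crosslink collagen were listed with the matrix genes, and 20 of 31 were tested. None passed in limma, and 3 had an unadjusted p under 0.05 over both conditions, all negative, with a median of -0.058 over the list. Over all features 5.59% had such a p, 2.43% on the negative side. In the turned reading 0 of the 20 did, and the median was -0.055. The 4 of smallest p are named. Serpinh1, the collagen chaperone of the endoplasmic reticulum, ranged from -1.07 to -0.52 untreated and from -1.09 to -0.71 in nocodazole replicates 2 to 4, with 1.25 in replicate 1. The prolyl hydroxylase subunits P4ha1 and P4ha2, needed for a stable triple helix, had untreated means of -0.83 ± 0.98 and -0.42 ± 0.23 (SD, n = 4 each). On nocodazole replicate 1 they were at 0.55 and 0.61. Colgalt1, which adds galactose to collagen hydroxylysine, had an untreated mean of -0.43 ± 0.22 (SD, n = 4) and was at 0.48 on that array. All 4 were negative on the other 7 arrays. None of the 7 matrix genes with complete values was, which at a share of 2.85% of features says nothing particular about the matrix genes. Being chosen by their p, these 4 do not stand for the list, of which 11 were negative and 9 positive. Their ratios over both conditions in the turned reading were 0.40 for Serpinh1, 0.38 for P4ha1, 0.18 for P4ha2 and 0.23 for Colgalt1.

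Markers of fibroblasts other than collagen held genes of the same kind. Of 26 listed, 18 were tested, 0 passed in limma and 2 had an unadjusted p under 0.05 over both conditions (5.59% of all features), with 13 negative and 5 positive and a median of -0.14. Untreated alone the list had 8 negative and 10 positive with a median of 0.035, and over both conditions with the Cy3 arrays turned 8 and 10 with a median of 0.068. The 4 of smallest p, named next, therefore do not stand for the list. S100a4, a calcium-binding protein of motile cells, was at -0.62 ± 0.27 untreated (SD, n = 4) and Lgals1, a secreted lectin, at -0.38 ± 0.093 (SD, n = 4). Both were negative on the 7 arrays and positive on nocodazole replicate 1, at 0.63 and 0.56. Acta2, the actin of smooth muscle and myofibroblasts, was at 0.35, -0.38, -0.30 and -1.04 untreated and at 0.31, -0.051, -0.61 and -0.47 with nocodazole. Vim, the intermediate filament of mesenchymal cells, was at 0.025, -0.15, -0.25 and -0.48 on untreated replicates 1 to 4 and at 0.32, -0.32, -0.14 and -0.30 on nocodazole replicates 1 to 4. These values run close to those of Col1a2 array by array. In the turned reading the ratios over both conditions were 0.25 for S100a4, 0.15 for Lgals1, 0.26 for Acta2 and 0.14 for Vim.

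In the marker set for fibroblasts and feeders, 13 of 14 genes were tested, 9 of them negative over both conditions; it holds Col1a1, Col1a2, Col3a1, Dcn and Postn themselves. Its medians lay between -0.15 and 0.025 untreated and between -0.21 and 0.005 with nocodazole, with 0 genes past the threshold and 1 at an unadjusted p under 0.05 in limma (5.59% of all features). The set for parietal and primitive endoderm (9 of 13 tested, among them Sparc, Serpinh1 and Dab2) had untreated medians between -0.78 and -0.094, medians between -0.83 and 0.76 with nocodazole, and 7 negative genes. In limma 0 of these 9 passed over both conditions and 4 had an unadjusted p under 0.05 (5.59% of all features). For embryonic stem cells 5 of 9 were tested, 4 of them positive, and for smooth muscle 2 of 4, of either sign. An unadjusted p under 0.05 in limma was reached by 1 stem cell gene and 0 smooth muscle genes. Their part in the ratios of the matrix genes was not tested. All counts and medians of these marker sets use the deposited signs and were not taken with the Cy3 arrays turned.

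The rest of the matrix pathway also had no gene past the threshold in limma, in either reading of the signs. Among 18 tested genes of other interstitial matrix, 13 were negative over both conditions with a median of -0.092 (0.0087 with the Cy3 arrays turned), and 3 had an unadjusted p under 0.05 (5.59% of all features), among them Ccn2, a matricellular target of TGF-beta (-0.41 ± 0.11 untreated, SD, n = 4) and Thbs1, which activates latent TGF-beta (-0.62 ± 0.064). Of 9 tested basement membrane genes, 5 were negative (6 turned), led by Sparc, a collagen-binding glycoprotein, at -0.80 ± 0.15 untreated (SD, n = 4). Sparc was at 1.23 on nocodazole replicate 1, and its ratio over both conditions was -0.75, or 0.23 with the Cy3 arrays turned. The 14 other collagens had 6 negative and 8 positive untreated and 12 and 2 with nocodazole. Over both conditions they had 8 and 6 (11 and 3 with the Cy3 arrays turned). In limma 0 of them had an unadjusted p under 0.05 over both conditions (5.59% of all features) and 1 untreated (6.33%). In the turned reading 2 did over both conditions, both negative (6.81% of all features on that side). Col12a1, a collagen that associates with fibrils, was at 1.76, 0.11, 0.93 and 2.36 untreated and at -0.51, -0.39, -1.22 and -0.44 with nocodazole. Under the deposited signs its groups did not overlap, which held for 2.08% of features with complete values. The change was then -1.80 (SE 0.50, limma adjusted p = 0.997). With the Cy3 arrays turned, both groups held values of either sign and overlapped. Of 12 matrix receptors 7 were negative (7 turned), led by Itgb1, the shared beta subunit of collagen and fibronectin receptors, at -0.24 ± 0.12 untreated (SD, n = 4, 6 probes). Among 15 matrix proteases and inhibitors 10 were negative (9 turned), with Timp2 at -0.54 ± 0.19 untreated (SD, n = 4). TGF-beta signalling, the main inducer of fibrillar collagen genes in fibroblasts, had 8 of 12 genes positive (3 turned). Its transducer Smad3 was at 0.58 ± 0.55 untreated (SD, n = 4). Over both conditions 1 of the 12 had an unadjusted p under 0.05 in limma, on the positive side (3.16% of all features). With the Cy3 arrays turned 3 did, all negative (6.81% of all features on that side). In the turned reading the ratios over both conditions were 0.089 for Ccn2, 0.062 for Thbs1 and -0.51 for Col12a1. They were 0.11 for Itgb1, 0.23 for Timp2 and -0.36 for Smad3. Of the 9 tested pluripotency genes 8 were positive over both conditions, and 5 with the Cy3 arrays turned. In limma 3 of them had an unadjusted p under 0.05, all positive (3.16% of all features on that side). In the turned reading 1 did, on the negative side (6.81%).

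The genes whose values ran most like the mean of the 10 matrix genes over the 8 arrays, among 7481 named genes with complete values, were Canx (r = 0.97), Rps19bp1 (0.96), Tmem184c (0.94), Per1 (0.94) and Nck1 (0.94). That mean ranged from -0.52 to 0.37, and from -0.18 to 0.13 over the 7 genes with complete values, which leave out Col1a1, Col3a1 and Postn. Against the mean of those 7, a profile added after the values were seen, the nearest genes were others: Klk1b11 (r = 0.96), Sumf2 (0.96), Ago2 (0.95), Ppfia2 (0.95) and Nipsnap2 (0.92). The first list thus changed entirely when the 3 genes with gaps were left out. Likeness to Col1a2 alone was also looked at after its values were seen. The nearest were Rab14 and Src (r = 0.99 each), the actin-severing protein Gsn (0.98), Litaf (0.98) and Vim (0.98). Gsn ranged from -0.86 to -0.25 untreated and from -0.74 to -0.56 in nocodazole replicates 2 to 4, with 0.64 in replicate 1. These r are descriptions over arrays that all 7481 genes share.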

How the data were processed

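The deposited table holds 1 log2 ratio per probe and array. How the authors corrected background, normalized and took ratios is not stated in labels or headers. Read from the values, each array carries 1 added offset and a code for a ratio of 100000. Coded values (74 to 203 per array) were set to missing; none belonged to the 10 genes. Of the 165 values of their probes, 8.48% matched the log2 of a quotient of small whole numbers (up to 10, within 0.0015), against 14.5% of all probes; brightness is unknown.

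Arrays were centred on their median and probes of a symbol averaged. Features with 3 or more values per group were fitted with limma 3.58.1 (R 4.3.3, statmod 1.5.0): lmFit and eBayes on all 8 arrays, a coefficient per group and a dye term, two-sided p, Benjamini-Hochberg over 14015 features, threshold 0.05. The fit was tested on simulated data. The genes and lists were chosen with earlier results of these data known. Text names the 10 genes, up to 4 genes per other list with complete values and the smallest p over both conditions, and 5 genes of highest r; the genes nearest Col1a2 were added after its values were seen. Deposited signs were kept. Alternatives covered coding, sign, dye, centring, scaling, probe summary, filters, weights, block and single arrays.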

Additional observations from a re-analysis of the deposited data

Results flagged for a closer look

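In groups of 4 arrays, the highest or lowest value was set against the others by Dixon's ratio. Of 17 such groups of the 10 genes, 1 had an array apart, where chance gives about 1 in 20 groups. Col1a2 was at 0.41 on nocodazole replicate 1, against -0.21 to -0.17 on the other nocodazole arrays, a gap of 0.93 of the range.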

How the results depend on the processing

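None of the 10 genes passed the threshold in limma under any alternative, and of 820 values of these genes 804 moved by no more than the spread between arrays. The sign differed from the main reading in 78 of them, all for values below the threshold, and 7 had an unadjusted p under 0.05: 4 with the Cy3 arrays turned, 2 of Col3a1 without untreated replicate 1 and 1 of Col1a2 without nocodazole replicate 1. With the Cy3 arrays turned, the median over the genes was -0.11 untreated, -0.12 over both conditions and -0.095 for the change. With values needed on all 8 arrays, which leaves 7 genes, it was 0.036 untreated and -0.12 for the change. Dropping the dye term gave -0.068 for the change, as did treating nocodazole replicate 3 as HM-1 in Cy3. No other single array, nocodazole replicate 1 included, was given the opposite dye label. Leaving out single arrays gave medians for the change between -0.084 and 0.085. With the replicate block (consensus correlation 0.090) the medians were -0.019 untreated, -0.053 with nocodazole, -0.011 over both conditions and 0.045 for the change, and no call changed. Same-numbered arrays correlated at 0.13, 0.021, -0.051 and 0.094 in their deviations from the group means. With 4 arrays per group and unequal dye labels, these r cannot settle whether the numbers pair the samples. Over all features, 1 passed with nocodazole when values on all 8 arrays were needed. Without intensities, signal over background limits each ratio to an unknown degree.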
